A study of Oryza sativa with 12 samples.

Results

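The sugar efflux carrier genes SWEET4, SWEET11, SWEET14 and SWEET15 were followed through the tissues of the rice (Oryza sativa) seed. They are the rows with these names in a table of 37878 genes, and all 4 were found. The table holds 11 rows with a SWEET name in all. Total read counts came from 12 RNA sequencing libraries, 3 from each of 4 tissues: the pericarp, which is the fruit wall and belongs to the mother plant; the embryo; the endosperm, the starch store; and the aleurone, its outermost layer of cells. Plants had been grown in the field with no treatment, and this is shared by all groups. Per the design text the 3 are biological replicates. The sources used here do not give the cultivar, the stage of the seed or whether 1 set of seeds gave all tissues, and the p-values measure the spread between these libraries only. Libraries are named by tissue and by the number in their column header.

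SWEET proteins are membrane carriers that let sugars leave or enter a cell down their concentration gradient, without using energy. The rice embryo and endosperm have no vascular connection to the mother plant, so sugar unloaded in the maternal tissue has to cross cell membranes to reach them. SWEET11, SWEET14 and SWEET15 belong to the branch of the family that carries sucrose, and SWEET4 to a branch that carries hexoses such as glucose. In rice, SWEET11 is known for its role in grain filling, which it shares in part with SWEET15 and with SWEET14, and SWEET4 and its maize counterpart are likewise known from seed filling. SWEET11 and SWEET14 are also known as genes that the rice blight bacterium switches on in leaves.

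Each tissue was led by 1 of the genes. SWEET11 was the most abundant of the 4 in all 3 pericarp and all 3 aleurone libraries, SWEET14 in all 3 endosperm libraries and SWEET15 in all 3 embryo libraries. Levels are set between genes as CPM per kb: counts per 1000000 (CPM, after TMM scaling) divided by the length of the gene in the table in units of 1000 bases. That length includes introns, since no other length was used, so the values rank genes only roughly. Of the summed CPM per kb of the 4 genes, SWEET11 made up 80.8% in pericarp 1, 91.5% in pericarp 3 and 82.5% in pericarp 4, and 89.9%, 88.8% and 97.3% in aleurone 1, 2 and 3. SWEET14 made up 84.9% in endosperm 2, 90.5% in endosperm 3 and 70.1% in endosperm 4. SWEET15 made up 76.2%, 80.4% and 85.7% in embryo 2, 3 and 4, where SWEET4 made up the rest.

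The summed level differed as well. It was 232 ± 142 CPM per kb in pericarp, 170.0 ± 69 in aleurone, 125 ± 106 in endosperm and 9.56 ± 3.25 in embryo (SD, n = 3 libraries each). The 3 embryo libraries, at 6.4, 12.9 and 9.37 CPM per kb, lay below all pericarp and aleurone libraries. Endosperm was uneven, with 146 CPM per kb in endosperm 2, 219.9 in endosperm 3 and 10.3 in endosperm 4, which lay within the embryo range. In pericarp SWEET11 was among the abundant transcripts, with 2.04% of the 9880 genes seen there above its mean CPM per kb. In aleurone 2.19% of 15970 genes were above SWEET11, and in endosperm 4.11% of 13392 genes were above SWEET14. No SWEET gene ranked so high in embryo, where 35.6% of 19074 genes were above SWEET15.

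**Figure D1:**
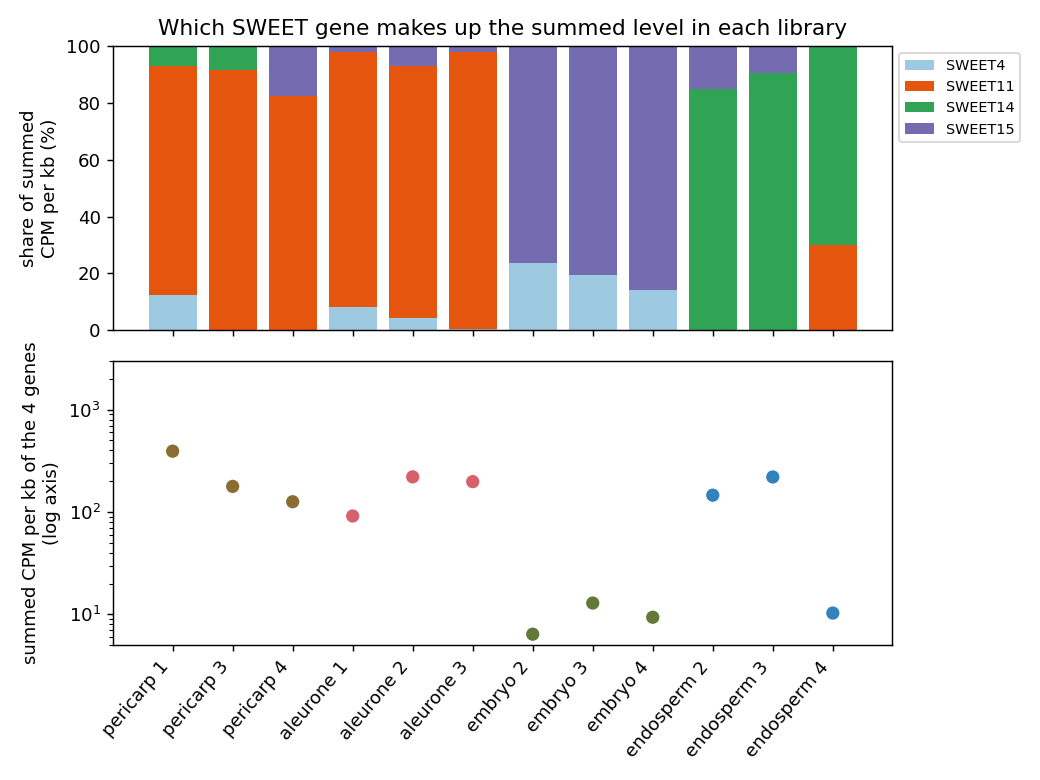
Upper panel: share (%) of each SWEET gene in the summed CPM per kb of SWEET4, SWEET11, SWEET14 and SWEET15, 1 bar per library. Lower panel: that summed CPM per kb on a log axis, 1 point per library. SWEET11 leads in pericarp and aleurone, SWEET15 in embryo and SWEET14 in endosperm, and the 3 embryo libraries and endosperm 4 have the lowest sums, 6.4 to 12.9 CPM per kb.

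The libraries differed in how many transcripts they captured, which touches every zero below. Total counts ran from 2879282 to 6301388 in pericarp, 5689112 to 16005961 in aleurone, 14205388 to 18169845 in embryo and 6367350 to 24412371 in endosperm. Of tested genes that reached 10 CPM in some library of a tissue, the share counted in all 3 of its libraries was 20.6% in pericarp, 51.0% in aleurone, 47.9% in endosperm and 92.9% in embryo, and 48.4% of those in pericarp were counted in 1 library alone. The headers name 2 sequencing lanes, with pericarp 1, aleurone 1 and 2, embryo 2 and endosperm 2 on lane 6 and the rest on lane 5. Embryo and endosperm libraries were led by their own markers. WAXY, the starch synthase of the endosperm and the 1 of 8 listed endosperm markers found by name, ran from 23088 to 81668 CPM in endosperm, 1092 to 2639 in aleurone, 343 to 2320.4 in pericarp and 0.724 to 19.9 in embryo. The summed level of 5 of 6 embryo markers was 370.0 to 420.2 CPM in embryo and at most 117 in any other library. The summed level of 5 of 8 markers of oil bodies and desiccation was 309.6 to 891 CPM in endosperm and 1753 to 6119.5 in the other tissues. Of these PXG and RAB16D were at 0 in pericarp, and PXG alone was highest in endosperm, at 200.5 ± 150.3 CPM against 39.4 ± 29.96 in aleurone and 2.47 ± 2.23 in embryo (SD, n = 3). No marker of pericarp was listed. In such bulk samples fewer cells of a type cannot be told apart from less RNA per cell.

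SWEET11 (chromosome 8, 28419731 to 28421978, complement strand, in the coordinates of the deposited table; no source used here names the build) was high in pericarp and aleurone, nearly absent from endosperm and not detected in embryo. Its counts were 5926, 2805 and 1410 in pericarp 1, 3 and 4, which is 713, 367 and 235 CPM. In aleurone 1, 2 and 3 they were 2495, 2606 and 4122, or 185, 440.2 and 433 CPM. Pericarp and aleurone libraries overlapped after TMM scaling, while by library totals alone every pericarp library lay above every aleurone library. In endosperm 2, 3 and 4 there were 0, 1 and 77 counts, and in the embryo libraries 0, 0 and 0. All 6 pericarp and aleurone libraries thus lay far above all 6 embryo and endosperm libraries. How many of all genes separate tissues in this way was not counted.

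Pericarp held 438 ± 247 CPM of SWEET11 and aleurone 353 ± 146 (SD, n = 3), and aleurone over pericarp came to -0.31 ± 1.45 on the log2 scale (SE), with a Benjamini-Hochberg adjusted p = 1 in the quasi-likelihood test of edgeR. By library totals alone this log2 fold change was -1.18 (adjusted p = 0.728, edgeR), so its size depended on the scaling. Against embryo the difference was at least 8825-fold for pericarp and 7103-fold for aleurone, taking 3 counts over the 3 embryo libraries (0.0497 CPM) as the floor. Such a floor reflects the error of counting alone, because copies made by PCR are not separate molecules. Neither this floor nor those used below cover transcripts that a library missed. Both differences were called, with adjusted p = 0.014 and 0.03 (edgeR). Endosperm, at 2.37 ± 3.94 CPM, was 185-fold below pericarp and 149-fold below aleurone by the ratio of mean CPM, and the fitted log2 fold changes were 7.51 ± 1.92 (adjusted p = 0.0679) and 7.19 ± 1.90 (adjusted p = 0.255, edgeR), past no threshold. These values rest on endosperm 4, which held 77 of the 78 endosperm counts. Without it the fitted values were 12.13 (adjusted p = 0.0405) and 11.89 (adjusted p = 0.186, edgeR), whose size depends on the 1 count then left. Endosperm and embryo overlapped at 0. Over the 4 tissues together SWEET11 passed the F test (adjusted p = 0.026, edgeR), as did 1.78% of all genes tested.

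DESeq2 and limma voom also called both differences of SWEET11 from embryo. For aleurone against embryo they called 8.37% and 13.8% of all genes, and for pericarp against embryo 31.9% and 44.2%. The SWEET11 calls of edgeR were near the threshold. That against pericarp ended without embryo 2, 3 or 4 (adjusted p = 0.054, 0.0648 and 0.0578, edgeR). That against aleurone ended without any aleurone library (adjusted p = 0.0884 to 0.122), any embryo library (0.127 to 0.185) or pericarp 3 (0.0519, edgeR), although every library left in place still separated the tissues. Within lane 5 mean SWEET11 was 301 CPM in pericarp, 433 in aleurone, 3.56 in endosperm and 0 in embryo, and within lane 6 it was 713, 312, 0 and 0. The pericarp libraries also held oil body and desiccation transcripts known from aleurone and embryo, with a summed level of 1753 to 2683 CPM against 3000.5 to 6119.5 in aleurone. OLE18 (1504 ± 223 CPM) and LEA19 (708 ± 253) made up most of the pericarp level. RAB16C was at 12.2 ± 20.8 CPM in pericarp against 217 ± 195 in aleurone (SD, n = 3), and PXG and RAB16D were at 0 in pericarp. The part of aleurone RNA in the SWEET11 level of pericarp was not tested. In pericarp 1, 3 and 4 OLE18 was at 1259, 1556 and 1696 CPM. In the same libraries WAXY, which aleurone also held, was at 2320.4, 974 and 343 CPM.

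**Figure D2:**
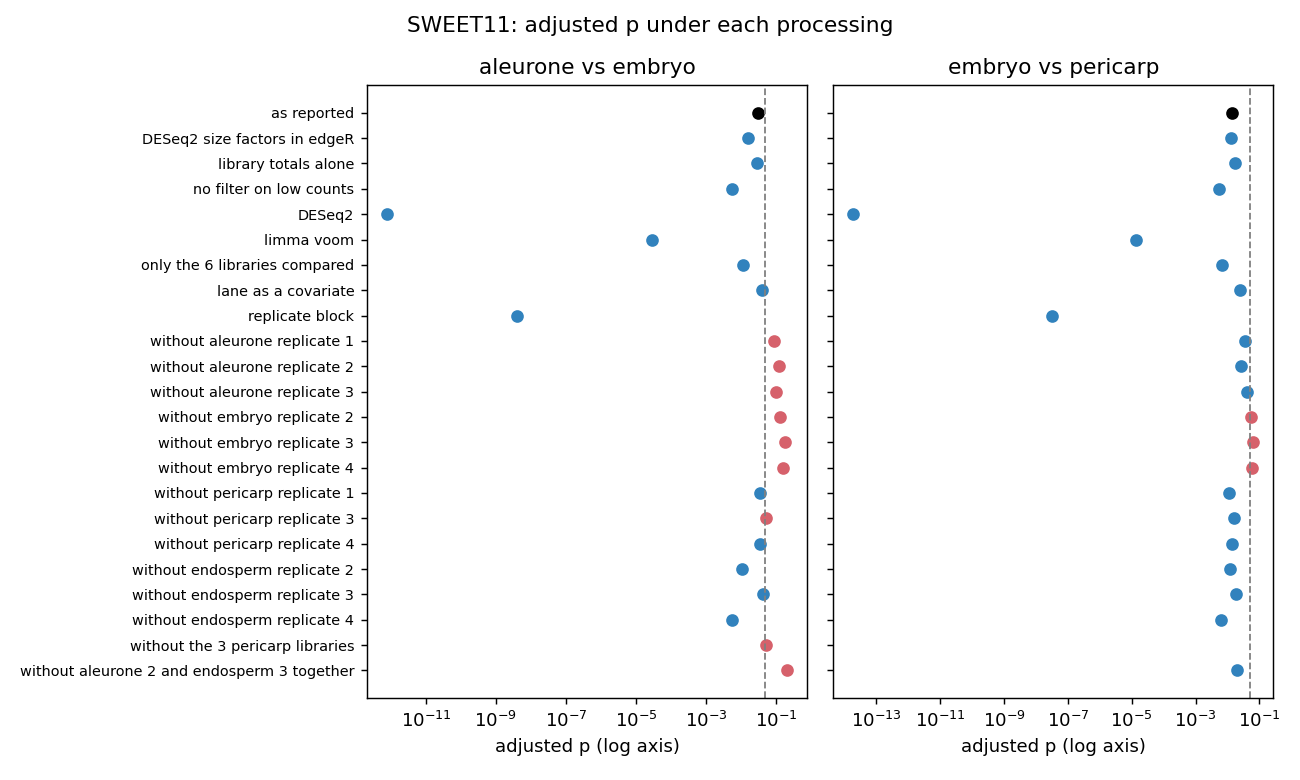
Benjamini-Hochberg adjusted p of SWEET11 (x axis, log scale) under each processing, 1 point per setting, for aleurone against embryo (left) and embryo against pericarp (right). Black is the value as reported, blue points lie below and red points at or above the dashed line at 0.05. With 1 library left out the values run from 0.00563 to 0.185 on the left and 0.00643 to 0.0648 on the right.

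SWEET14 (chromosome 11, 14915289 to 14917489, complement strand) was the endosperm gene of the 4. Its counts in endosperm 2, 3 and 4 were 2263, 2265 and 177, or 273, 438 and 15.9 CPM. In pericarp 1, 3 and 4 they were 498, 254 and 0, or 59.9, 33.2 and 0 CPM. All 3 aleurone and all 3 embryo libraries had 0 counts. Endosperm was therefore apart from aleurone and embryo in every library, while endosperm 4 lay within the pericarp range. The share of all genes so separated was not counted, here or for SWEET4 below.

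Endosperm held 242 ± 213 CPM of SWEET14 and pericarp 31.1 ± 30.03 (SD, n = 3), and pericarp over endosperm came to -2.96 ± 2.11 on the log2 scale (SE), with adjusted p = 0.435 in edgeR. On its mean, endosperm was at least 2337-fold above aleurone and 4879-fold above embryo, set against floors of 0.104 and 0.0497 CPM. These differences had unadjusted p = 0.00258 and 0.00194 and did not pass after adjustment (adjusted p = 0.253 and 0.12, edgeR). They passed by other tools, with adjusted p = 0.000123 and 1.65e-05 by DESeq2 and 0.00357 and 0.000439 by limma voom. Without pericarp 4, the pericarp library in which SWEET14 was at 0, edgeR called SWEET14 higher in endosperm than in embryo (adjusted p = 0.0326), and higher in pericarp than in aleurone (0.0426) and in embryo (0.028). It then called 1.2%, 2.14% and 3.22% of all genes in these comparisons. Within lane 5 mean SWEET14 was 227 CPM in endosperm and 16.6 in pericarp, and within lane 6 273 and 59.9.

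The pericarp libraries with SWEET14 also held the endosperm gene WAXY, at 2320.4 CPM in pericarp 1 and 974 in pericarp 3, against 343 in pericarp 4. The aleurone libraries held 1092 to 2639 CPM of WAXY and 0 counts of SWEET14. The part of endosperm RNA in the pericarp values was not tested. Endosperm 4, the library with least SWEET14 of its tissue and the only endosperm library with more than 1 count of SWEET11, had the most WAXY of all, 81668 CPM. Its summed oil body and desiccation markers came to 325 CPM, within the range of the endosperm libraries, with the least OLE18 of the 12 libraries (72.6 CPM) and 224 CPM of PXG, above every aleurone library. Endosperm 4 also had the most of the sucrose carrier gene SUT1 in its tissue, 11.1 CPM. The part of aleurone RNA in endosperm 4 was not tested.

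**Figure D3:**
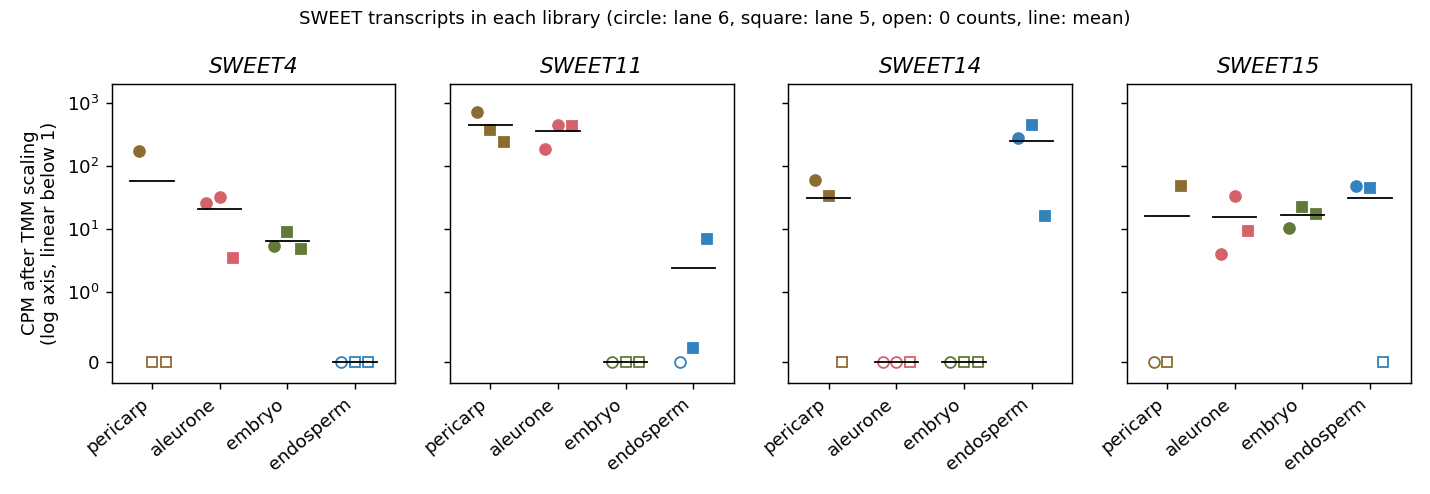
CPM after TMM scaling (y axis, log above 1 and linear below) of the 4 SWEET genes in each library, by tissue. Circles are lane 6 libraries, squares lane 5, open symbols have 0 counts, and lines mark the mean of 3 libraries. SWEET11 is high in all 6 pericarp and aleurone libraries, SWEET14 is seen in endosperm and 2 pericarp libraries, SWEET4 is at 0 in endosperm, and SWEET15 appears in some libraries of every tissue.

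SWEET4 (chromosome 2, 12414458 to 12417944, complement strand) was seen in every tissue but the endosperm. Counts were 347, 191 and 32 in aleurone 1, 2 and 3, or 25.7, 32.3 and 3.36 CPM. In embryo 2, 3 and 4 they were 115, 158 and 97, or 5.31, 8.77 and 4.68 CPM. Pericarp 1 had 1398 counts, 168 CPM and the highest level of all, while pericarp 3 and 4 had 0. Endosperm had 0 counts in all 3 libraries.

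Aleurone and embryo were thus apart from endosperm in every library, at least 168-fold and 51.2-fold above a floor of 0.122 CPM, and pericarp, which overlapped with endosperm at 0, by at least 459.7-fold on its mean. None of these passed in edgeR (adjusted p = 0.255, 0.153 and 0.125) or in limma voom (0.0869, 0.051 and 0.352). DESeq2 called each of them (adjusted p = 7.89e-17, 8.82e-15 and 1.03e-19), with log2 fold changes of 23.84, 21.88 and 25.65. These were fitted against endosperm at 0, so their size is no measure of the difference. The mean of aleurone was 20.4 ± 15.1 CPM and that of embryo 6.25 ± 2.21 (SD, n = 3). Aleurone over embryo came to 1.71 ± 2.61 on the log2 scale (SE), with adjusted p = 1 in edgeR, and the lowest aleurone library lay below all embryo libraries. The pericarp mean of 56.1 ± 97.2 CPM rested on pericarp 1 alone. Its comparisons with aleurone and embryo, log2 fold changes of -1.46 ± 2.59 for aleurone over pericarp and -3.16 ± 2.76 for embryo over pericarp, did not pass (adjusted p = 0.932 and 0.488, edgeR) and changed sign without pericarp 1, to 10.87 and 9.21. Pericarp was then at 0, so the size of these fitted values is no measure of the difference. In lane 6, which holds pericarp 1, SWEET4 averaged 29.0 CPM in 2 aleurone libraries and 5.31 in 1 embryo library. In lane 5 it was 3.36 CPM in 1 aleurone library and 6.73 in 2 embryo libraries, so the order of aleurone and embryo was not the same in both lanes.

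SWEET15 (chromosome 2, 19783789 to 19785909, complement strand) was spread over all tissues. Embryo held it most evenly, with 224, 395 and 353 counts in embryo 2, 3 and 4, or 10.3, 21.9 and 17.0 CPM. In endosperm 2, 3 and 4 there were 387, 228 and 0 counts, or 46.7, 44.1 and 0 CPM. In aleurone 1, 2 and 3 there were 53, 193 and 88, or 3.92, 32.6 and 9.25 CPM. Pericarp 4 had 282 counts, 46.9 CPM, and pericarp 1 and 3 had 0. No tissue stood apart from another, and every pair overlapped.

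By mean the order was endosperm at 30.3 ± 26.2 CPM, embryo at 16.4 ± 5.82, pericarp at 15.6 ± 27.1 and aleurone at 15.3 ± 15.3 (SD, n = 3), with no neighbours apart beyond their spread. The order itself depended on the scaling: by library totals alone it was pericarp at 33 CPM, embryo at 21, endosperm at 18.4 and aleurone at 14.7. The 6 log2 fold changes ran from -0.99 to 0.07, with standard errors from 2.58 to 2.60, and the F test over the tissues gave adjusted p = 0.999 (edgeR). Without pericarp 4, the pericarp library with SWEET15, pericarp was at 0 and the largest fitted log2 fold change was 11.32 in size, and by limma voom with all libraries it was 4.57, neither past the threshold. Errors of this size leave differences of several log2 units undetectable. Of genes with at least 50 counts in both other libraries of the tissue, 27.9% were at 0 in pericarp 1, 28.4% in pericarp 3 and 36.4% in pericarp 4. In aleurone 2 and endosperm 3, where SWEET15 was counted, the share was 33.6% and 31.7%. In endosperm 4, where SWEET15 was at 0, it was 6.41%, the lowest of the endosperm libraries. The part of missed transcripts in the zeros of SWEET15 was not tested.

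Counted over the 4 genes, edgeR called 1 of 4 higher in aleurone than in embryo and 1 of 4 higher in pericarp than in embryo, SWEET11 both times. Of all 16347 genes tested, 0.428% and 0.606% were called in these directions, and 0.447% and 2.79% in either direction. In the other comparisons edgeR called 0 of the 4, where it called 0.0428% (aleurone against endosperm), 0.685% (embryo against endosperm), 2.46% (pericarp against endosperm) and 1.63% (aleurone against pericarp) of all genes in either direction. In the same order, 3, 3, 2 and 1 SWEET genes were below 0.05 before adjustment, as were 19.6%, 26.7%, 30.3% and 31.1% of all genes. DESeq2 called 3, 3, 2 and 1 of them, against 14.7%, 18.9%, 29.3% and 26.8% of all genes, and limma voom 2, 1, 1 and 0, against 4.4%, 28.5%, 10.3% and 10.3%. SWEET4, which had no counts in endosperm, was among the DESeq2 calls in each comparison with endosperm. In pericarp against endosperm that call rested on pericarp 1, the only library of these tissues with SWEET4. The comparisons share libraries and are not independent of each other.

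The patterns of the 4 genes over the 12 libraries had little in common. Pearson correlations of log2(CPM + 1), given as a description, were 0.375 for SWEET4 with SWEET11 and between -0.404 and -0.141 for the other 5 combinations. All 4 genes lie on the complement strand, SWEET4 and SWEET15 on the same chromosome, and no other row of the table overlaps any of them. No source used here says how reads shared by near-identical family members were counted. Of the 7 other SWEET rows, SWEET6B alone had counts, 326 in pericarp 3 and 67 in aleurone 1, and SWEET1B, SWEET2B, SWEET6A, SWEET7B, SWEET7C and SWEET12 had 0 in all 12 libraries.

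SUT1, the proton-coupled sucrose uptake carrier, had the pattern most like that of SWEET11. The correlation over the 12 libraries was 0.979, and none of the other genes tested was closer. SUT1 had 190.4, 214 and 333 CPM in pericarp 1, 3 and 4 and 223, 1013 and 770.2 in aleurone 1, 2 and 3. In endosperm 2, 3 and 4 it had 0, 1.93 and 11.1 CPM, and in embryo 0 in every library. Libraries with SWEET11 were therefore the libraries with SUT1. Within the 6 pericarp and aleurone libraries the correlation was 0.149, so the likeness lay in the presence of both genes there and not in their levels among those libraries. Next came LTP, a lipid transfer protein gene (0.899, and -0.726 within the 6 libraries), and DAO, an auxin oxidase gene (0.674, and 0.898 within the 6).

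**Figure D4:**
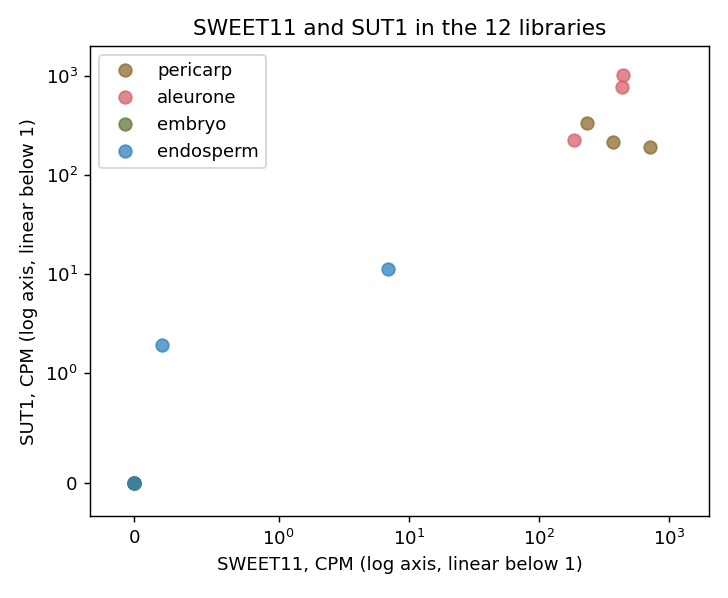
SWEET11 (x axis) and SUT1 (y axis) in CPM after TMM scaling, both axes log above 1 and linear below, 1 point per library, by tissue. All 6 pericarp and aleurone libraries have at least 185 CPM of SWEET11 and 190.4 of SUT1, and the 3 embryo libraries and endosperm 2 lie together at 0 for both.

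For the other SWEET genes the closest symbol-bearing genes were less close. SWEET14 went most with MIF1 (0.765), WAXY (0.668) and the homeobox gene WOX5 (0.658). MIF1 had 24.9 ± 15.5 CPM in endosperm, 22.9 ± 39.7 in pericarp, 0.0563 ± 0.0975 in aleurone and 0 in embryo (SD, n = 3). SWEET4 went most with the homeobox gene HOX16 (0.764), IPK2 (0.763) and PAD1 (0.751), and SWEET15 with NAP1;1 (0.652), RGBB (0.62) and ITPK1 (0.603). Over all 16347 genes tested, 41 were closer to SWEET14 than MIF1, 178 closer to SWEET4 than HOX16 and 144 closer to SWEET15 than NAP1;1.

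Of 67 listed genes of sugar import and use in the grain, 6 were found by name: SUT1, SUT4, SUT5, the cell wall invertase genes CIN2 and CIN3, and WAXY. Of these 4 had enough counts to test, and SUT1 and WAXY were called in some comparison. SUT1 was called higher than in embryo in aleurone (adjusted p = 0.0183) and in pericarp (adjusted p = 0.0124, edgeR), the same 2 comparisons as SWEET11. WAXY was called in these and also lower in embryo and in pericarp than in endosperm (adjusted p = 0.000955 and 0.0253, edgeR). CIN2, whose product splits sucrose outside the cell into the hexoses that SWEET4 carries, had 203, 84.7 and 0 CPM in pericarp 1, 3 and 4, and 0, 128 and 26.5 in aleurone 1, 2 and 3. It had 3.78, 32.4 and 36.3 CPM in embryo 2, 3 and 4. Like SWEET4 it had 0 counts in every endosperm library, and it was called in no comparison (adjusted p = 0.109 to 1, edgeR). SUT4, another sucrose transporter, had 29.3 ± 8.35 CPM in embryo, where SUT1 was at 0 (SD, n = 3), and was called in no comparison (adjusted p = 0.0999 to 1, edgeR). SUT5 had 174 counts in pericarp 3 and 0 elsewhere, and CIN3 had 0 in all libraries.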

How the data were processed

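The authors deposited whole-number total counts per gene, per the file headers. The other 36 columns of values (TPM, RPKM and CPM) were not used. Columns, those of counts included, could be matched to a tissue but not to a single sample, and only 1 measure, the counts, was kept. Levels between genes, planned on TPM, were therefore computed as CPM per kb of gene length. Headers gave the tissue by letters: Al, Em, Pc (pericarp) and Se (endosperm, by elimination). Their numbers differ from those in the sample titles. No source used here names the aligner, build or strand setting. In edgeR 4.0.16 (R 4.3.3) filterByExpr (minimum count 10) kept 16347 genes, all 4 SWEET genes among them, TMM scaled the libraries, and 1 quasi-likelihood fit held all 12 libraries with tissue as the term. The biological coefficient of variation was 1.87. A call needed a Benjamini-Hochberg adjusted p below 0.05 over all genes tested and a fold of at least 2. DESeq2 1.42.0, limma 3.58.1 and other settings were alternatives, and the scripts were tested on simulated data. CPM are counts per 1000000 after TMM scaling. Each standard error is the size of the log2 fold change divided by the root of its F.

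The SWEET genes and lists were chosen with earlier results of these data known. Genes named are the 4 SWEET genes, other rows with a SWEET name and the 3 symbol-bearing genes closest in pattern to each. Sugar genes that were called or among the 3 most abundant are named too. SUT4, SUT5, CIN3 and the single markers OLE18, LEA19, PXG, RAB16C and RAB16D were added after their values were seen. No sequence is shown, since neither the table nor the reference used here holds any.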

Additional observations from a re-analysis of the deposited data

How the results depend on the processing

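The number of SWEET genes called depended more on the tool than on scaling: DESeq2 size factors and library totals alone, both in edgeR, left it as it was in all 6 comparisons and in the F test, although totals alone moved the median log2 fold change of all genes, for embryo over endosperm from 1.10 to 2.44. Against 0 called, DESeq2 called 3 (aleurone and endosperm), 3 (embryo and endosperm), 2 (pericarp and endosperm) and 1 (aleurone and pericarp), and limma voom 2, 1 and 1 in the first 3. Against 1 called, both called 2 for embryo and pericarp (DESeq2 called 31.9% and limma voom 44.2% of all genes) and 2 over any tissue (13.6% and 40.4%). A fit of the 6 libraries compared called 2 for embryo and endosperm (29.5% of all genes), and a fit without a filter on low counts 2 over any tissue (1.69%). The cause was not tested.

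With 1 library left out the number ran from 0 to 1 for embryo and endosperm, pericarp and endosperm, aleurone and pericarp, and aleurone and embryo. In this order the share of all genes called ran from 0.272% to 1.38%, 0.623% to 5.54%, 0% to 4.7% and 0.19% to 0.59%. The number ran from 0 to 2 for embryo and pericarp (0.621% to 5.05% of all genes) and over any tissue (0.334% to 4.9%). For aleurone and endosperm the number stayed at 0 (0% to 0.36% of all genes). Beyond the single libraries named above, SWEET11 was called higher in pericarp than in endosperm without endosperm 4 (adjusted p = 0.0405, edgeR, with 0.623% of all genes). SWEET11 lost the F test without any aleurone or embryo library (adjusted p = 0.0643 to 0.083, edgeR). SWEET14 passed the F test without pericarp 4 (adjusted p = 0.0237, edgeR), as did 2.86% of all genes. In alternatives chosen after seeing the data, leaving out all 3 pericarp libraries gave 1 call for embryo and endosperm (5.22% of all genes), 0 for aleurone and embryo (1.32%) and 2 over any tissue (4.95%), and leaving out aleurone 2 with endosperm 3 gave 0 for aleurone and embryo (0.132%) and 0 over any tissue (0.192%).

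Libraries with the same header number in different tissues did not deviate together (correlations -0.042 to 0.031 over 13 pairs of libraries), so the number was not taken as a pairing. Libraries with different numbers had correlations of -0.032 to 0.056 over 41 pairs. The many zeros limit what such correlations can show, so a pairing was not excluded. With the replicate block edgeR called 2 SWEET genes for aleurone and endosperm (0.783% of all genes), 2 for embryo and endosperm (2.26%), 1 for pericarp and endosperm (1.71%) and 2 over any tissue (3.55%). The block turned the log2 fold change of SWEET4 to 5.72 (aleurone over pericarp), -0.60 (aleurone over embryo) and 6.31 (embryo over pericarp), and of SWEET11 to 0.38 (aleurone over pericarp). Lane as a covariate turned SWEET4 to -1.08 (aleurone over embryo) and 0.57 (embryo over pericarp), and limma voom to 4.01 (aleurone over pericarp) and 2.77 (embryo over pericarp). With 1 library left out these ran from -1.94 to 10.87 for SWEET4 and from -0.50 to 0.25 for SWEET11 (aleurone over pericarp), and from -3.44 to 9.21 for SWEET4 (embryo over pericarp). None of these was called. SWEET15 was called under no alternative (lowest adjusted p = 0.134, without pericarp 4). Of the 3 genes closest to SWEET4 in pattern, 1 remained with a pseudocount of 0.1 or 10. By library totals alone SWEET11 averaged 699 CPM in pericarp.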
